A study of Mus musculus with 12 samples.

Results

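The 10 genes described here encode 6 ligands and 4 receptors of the tumour necrosis factor (TNF) superfamily and were chosen by symbol, out of 55822 gene identifiers measured. The ligands are Tnf, Ltb, Tnfsf9, Tnfsf13b, Tnfsf15 and Tnfsf18, and the receptors are Tnfrsf1a, Tnfrsf1b, Tnfrsf12a and Ltbr. RNA was sequenced from primary mouse aortic smooth muscle cells in 12 libraries, 4 for each of 3 media. The first group, IFNγ/LPS CM, received conditioned medium of bone marrow-derived macrophages that had been primed overnight with 20 ng/mL interferon gamma, stimulated for 4 hours with 100 ng/mL lipopolysaccharide and washed. The second group, naive CM, received medium of untreated macrophages, and the third was kept in regular growth medium. Before either conditioned medium was added, serum was lowered to 0.3% for 48 hours. The macrophages had conditioned their medium for 24 hours, in 0.3% serum with 10 ng/mL of the macrophage growth factor M-CSF, and the muscle cells spent 24 hours in it. The labels do not state the serum content of the regular medium or whether its cells were starved, so conditioning, serum and M-CSF cannot be told apart in a comparison with it. Count columns headed M1 were taken as IFNγ/LPS CM and those headed M0 as naive CM, after the usual names of these macrophage states, and every direction between these groups rests on that reading. The sources used here give no mouse strain, sex or age. The titles number biological replicates and do not say that animals or cultures were separate, so a p-value here reflects variation among libraries that may be technical.

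Ligands of the TNF superfamily are trimeric membrane proteins, many of which can be shed, and they act on receptors with cysteine-rich extracellular domains. Some receptors, such as the product of Tnfrsf1a, carry an intracellular death domain, while others, such as the product of Tnfrsf1b, recruit TRAF adaptors directly. Both routes lead to NF-κB and MAP kinase signalling, and death domain receptors can also start cell death. In the artery wall TNF is known for inducing adhesion molecules and chemokines in vascular cells.

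The libraries held 28097496 to 61493375 estimated counts. Levels are given as CPM, counts per 1000000 of a library total scaled by the TMM method, and comparisons between genes as TPM, which also divides by exon length. Genes were tested with edgeR's quasi-likelihood test, and "rose" and "fell" mean an adjusted p under 0.05 over all 16140 genes tested. Smooth muscle identity was weak by its defining markers. The summed level of 9 smooth muscle genes, led by Cald1 and Acta2, was 230 to 250 CPM in IFNγ/LPS CM. It was 704 to 797 CPM in naive CM and 1105 to 1227 CPM in regular medium. In IFNγ/LPS CM against naive CM 7 of the 9 fell and none rose, where 35.8% of all genes fell. In naive CM against regular medium 4 fell and 2 rose, where 16.4% of all genes fell and 18.3% rose. Myh11, smooth muscle myosin, averaged 0.203, 0.592 and 0.716 CPM in IFNγ/LPS CM, naive CM and regular medium. Among these genes Acta2, smooth muscle actin, averaged 77.3, 220.2 and 280.1 CPM. The summed level of 6 adventitial fibroblast markers, led by Dcn, was 6812 to 7485 CPM, 2032 to 2207 CPM and 2001 to 2297 CPM in the same order of groups. That sum followed Dcn and Ly6a: in IFNγ/LPS CM against naive CM 3 of these markers rose and 3 fell, each by at least 2-fold, with Ly6a 11.1-fold higher, Dpt 37.5-fold lower and a median log2 fold change of 0.17. The cells are called by their label here, and in bulk RNA a change in the number of cells of a type and in RNA per cell cannot be told apart.

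Promoter sequence is shown for 4 of the 10 genes, picked by their changes in IFNγ/LPS CM against naive CM. Tnfrsf1b was the listed receptor with the largest rise, Tnfrsf1a is its relative and Ltbr was the listed receptor with the smallest rise. Tnfsf13b was the tested listed ligand with the largest relative rise. Their letters can be read beside the values, and a link between motifs and changes was not tested. Windows run from 250 bases before to 50 bases after a RefSeq start site in build GRCm38.p6, 5′ to 3′ on the strand of the gene, and capitals mark matches on either strand to the gamma-activated site TTCNNNGAA (GAS), the core of the interferon-stimulated response element, GAAA and GAAA with 2 bases between (ISRE), or the NF-κB consensus.
Tnfrsf1b, chr4:145246821-145247120, minus strand: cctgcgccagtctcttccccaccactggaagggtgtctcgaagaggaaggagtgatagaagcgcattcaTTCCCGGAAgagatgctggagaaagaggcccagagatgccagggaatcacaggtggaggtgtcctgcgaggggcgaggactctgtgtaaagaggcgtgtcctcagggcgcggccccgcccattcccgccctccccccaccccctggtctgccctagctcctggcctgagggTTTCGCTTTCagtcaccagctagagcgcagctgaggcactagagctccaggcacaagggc
Tnfrsf1a, chr6:125349473-125349772, plus strand: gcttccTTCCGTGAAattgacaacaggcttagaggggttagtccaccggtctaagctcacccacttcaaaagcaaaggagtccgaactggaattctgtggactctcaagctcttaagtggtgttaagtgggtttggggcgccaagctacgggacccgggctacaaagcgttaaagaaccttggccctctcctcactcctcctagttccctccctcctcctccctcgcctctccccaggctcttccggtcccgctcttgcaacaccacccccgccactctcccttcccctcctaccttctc
Ltbr, chr6:125313836-125314135, minus strand: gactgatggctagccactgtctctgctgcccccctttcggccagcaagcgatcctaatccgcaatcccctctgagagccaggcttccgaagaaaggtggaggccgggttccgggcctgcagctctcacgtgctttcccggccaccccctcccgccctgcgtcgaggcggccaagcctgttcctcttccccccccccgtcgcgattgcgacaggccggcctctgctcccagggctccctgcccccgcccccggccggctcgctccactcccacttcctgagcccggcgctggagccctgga
Tnfsf13b, chr8:10006383-10006682, plus strand, the downstream of its RefSeq start sites: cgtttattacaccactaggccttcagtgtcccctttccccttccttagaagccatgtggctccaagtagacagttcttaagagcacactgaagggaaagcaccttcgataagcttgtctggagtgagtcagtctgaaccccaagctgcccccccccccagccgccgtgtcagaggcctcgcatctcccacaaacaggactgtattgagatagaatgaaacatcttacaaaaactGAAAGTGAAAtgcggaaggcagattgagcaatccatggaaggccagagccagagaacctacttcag

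The Tnfrsf1b window held a GAS match at -181 to -173 and an ISRE match at -10 to -1 from the start site, where position 1 is the first transcribed base. The Tnfrsf1a window held a GAS match at -244 to -236 and no ISRE match, and the Ltbr window held neither. The GENCODE M21 annotation starts Tnfrsf1a upstream of its window, at 125349362, so its GAS match lies inside the gene as annotated there. The Tnfsf13b window shown held an ISRE match at -16 to -7, while the window at its upstream start site, which overlaps it, held none. GENCODE M21 starts Tnfsf13b at that upstream site, at 10006467, so the ISRE match also lies inside the gene as annotated there. Among all 32851 windows in the table, 8.30% held a GAS match, 3.44% an ISRE match and 4.51% a match to the NF-κB consensus. Of the 9 listed genes with a window, Ltb was the only one with an NF-κB match, at -87 to -78, and it also held a GAS match at -172 to -164. The windows of Tnf, Tnfsf15, Tnfsf18, Tnfrsf12a and Ltbr held none of these 3 motifs, and Tnfsf9 has no window in the table. Searched as well, and not in capitals, were the Sp1 box GGGCGG, present in 35.66% of all windows and in those of Tnf, Tnfrsf1b, Tnfrsf12a and Ltbr, and the AP-1 motif TGANTCA, present in 7.81% and in both windows of Tnfsf13b. Such a match describes letters in the window and not a bound site.

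In the GRCm38 build, which is the same as the mm10 build the authors used, GENCODE M21 places Tnfrsf1b on chromosome 4 at 145213463 to 145246870 and Tnfrsf1a on chromosome 6 at 125349362 to 125362484. Ltbr lies on the same chromosome as Tnfrsf1a, at 125306571 to 125313885, with 35476 bases between them. Tnfrsf12a lies on chromosome 17 at 23675445 to 23677468. Ltb, at 35194439 to 35196320 on chromosome 17, is separated by 3060 bases from Tnf at 35199381 to 35202007. Tnfsf9 lies on chromosome 17 at 57105325 to 57107757, Tnfsf13b on chromosome 8 at 10006467 to 10039072, Tnfsf15 on chromosome 4 at 63727084 to 63745113 and Tnfsf18 on chromosome 1 at 161494655 to 161505290. Values are estimated counts per gene, not reads over these intervals. Tnfsf9 overlaps the long noncoding RNA gene Gm11110 and Tnfsf13b overlaps the gene Gm44789, both on the opposite strand, and how the authors' counting used strand is not given in the sources used here.

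IFNγ/LPS CM was first compared with naive CM, the contrast that asks what macrophage stimulation added to the conditioned medium. Of the 8 listed genes abundant enough to test, 7 rose, none fell and Tnfsf15 did not pass, while Tnf and Ltb were too low to judge. The receptors Tnfrsf1b and Tnfrsf1a and the ligands Tnfsf9 and Tnfsf13b changed by at least 2-fold. Among all genes the same test called 71.9%, with 36.1% higher and 35.8% lower, and 13.9% were higher by at least 2-fold. The libraries of these groups did not overlap for 6 of the 8 listed genes, as was so for 69.5% of all genes tested. With library totals in place of TMM scaling 6 of the 8 rose and Tnfsf15 fell, and all genes split into 3279 higher and 9371 lower. Tnfsf13b was testable only through its counts in IFNγ/LPS CM, so its call and its separation follow partly from the filter on low counts. The median log2 fold change of the 8 tested genes was 1.02, against 0.004 for all genes tested. It was 0.63 under a stricter filter that left 7 of the genes, 0.64 with library totals and 1.73 with no filter, so its size depends on these choices. Each medium serves in 2 of the 3 comparisons, which are therefore not independent of each other.

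Tnfrsf1b encodes TNF receptor 2, which has no death domain and binds TRAF2. It had 799, 773, 799.8 and 749 CPM with IFNγ/LPS CM, against 128, 123, 133 and 127 CPM in naive CM and 120.3, 118, 127 and 126 CPM in regular medium. All 4 libraries of IFNγ/LPS CM lay far above the 8 others, and naive CM and regular medium overlapped. The means were 780.2 ± 24.4 CPM in IFNγ/LPS CM and 127.5 ± 4.25 CPM in naive CM (mean ± SD, n = 4 each), a 6.12-fold rise (log2 fold change 2.61, SE 0.042, edgeR's adjusted p = 1.11e-20). Tnfrsf1a encodes TNF receptor 1, the death domain receptor found on most cells. It had 195, 189, 191 and 184 CPM with IFNγ/LPS CM, against 68.5, 70.7, 75.5 and 70.2 CPM in naive CM and 58.1, 60.1, 69.0 and 66.8 CPM in regular medium. These groups did not overlap between IFNγ/LPS CM and either other medium, and the rise over naive CM was 2.67-fold (log2 fold change 1.42, SE 0.051, edgeR's adjusted p = 4.22e-15).

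Ltbr encodes the lymphotoxin beta receptor, which binds lymphotoxin heterotrimers and LIGHT. It had 129, 128, 117 and 122 CPM with IFNγ/LPS CM, against 83.2, 87.6, 91.6 and 83.5 CPM in naive CM and 75.9, 69.3, 83.5 and 80.8 CPM in regular medium. IFNγ/LPS CM was above every other library, by a smaller margin than for the TNF receptors, and the rise over naive CM was 1.43-fold (log2 fold change 0.52, SE 0.054, edgeR's adjusted p = 4.64e-08). Tnfrsf12a encodes Fn14, the receptor of TWEAK (Tnfsf12). It had 83.3, 85.3, 70.9 and 83.9 CPM with IFNγ/LPS CM, against 47.3, 54.8, 52.1 and 54.2 CPM in naive CM and 55.5, 48.7, 58.8 and 63.4 CPM in regular medium. Its libraries of IFNγ/LPS CM also lay above all others, with replicate 3 the lowest, and the rise over naive CM was 1.55-fold (log2 fold change 0.63, SE 0.080, edgeR's adjusted p = 4.86e-06). When library totals replaced TMM, the median of all genes shifted to -0.38 in log2 fold change, and the log2 fold changes of Ltbr and Tnfrsf12a became 0.13 and 0.25 (edgeR's adjusted p = 0.0258 and 0.0107). Both lay above that median, which follows from the nearly equal shift of all genes and is no separate support.

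**Figure D1:**
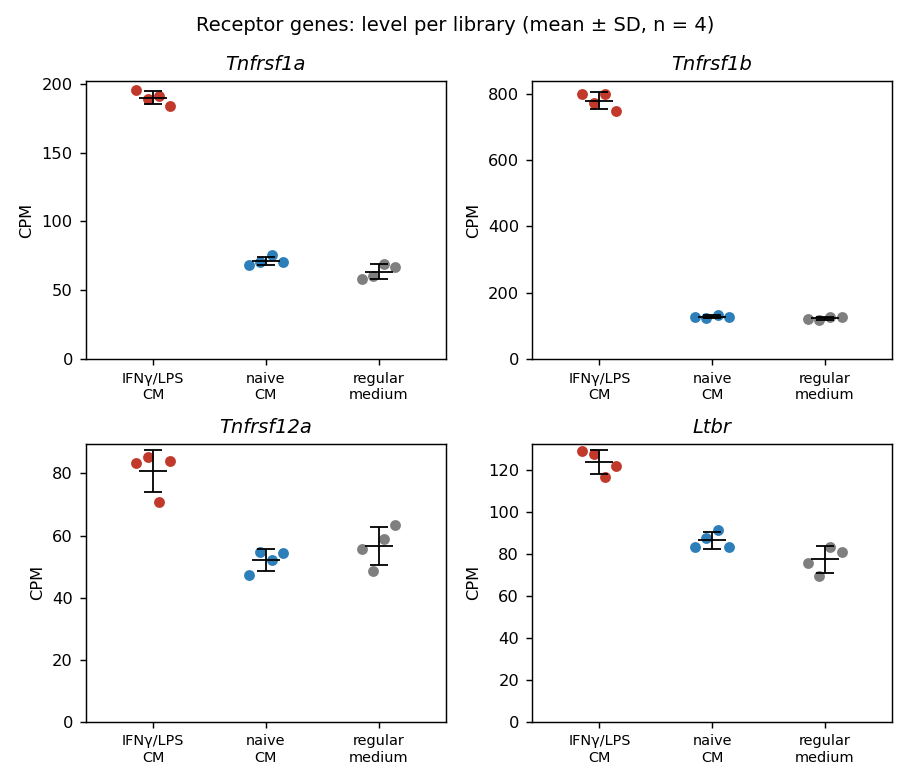
Level of the 4 receptor genes in each library (points, CPM on the vertical axis, from 0) by medium on the horizontal axis, with mean and SD (bars, n = 4). The libraries of IFNγ/LPS CM stand above all others for each gene, at 749 to 799.8 CPM for Tnfrsf1b against 118 to 133 CPM elsewhere. Of all genes tested, 69.5% did not overlap between IFNγ/LPS CM and naive CM, and 65.2% between IFNγ/LPS CM and regular medium.

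The receptors changed by unequal amounts, which was tested as the ratio of counts per length within each library, a measure that does not depend on scaling between libraries. The log2 ratio of Tnfrsf1b to Tnfrsf1a was 1.47, 1.47, 1.505 and 1.46 in IFNγ/LPS CM, against 0.34, 0.23, 0.26 and 0.29 in naive CM and 0.49, 0.41, 0.32 and 0.35 in regular medium. Tnfrsf1b RNA thus exceeded Tnfrsf1a RNA per length in every library, and by more in IFNγ/LPS CM. The difference from naive CM was 1.20 on the log2 scale, or 2.29-fold, and from regular medium 1.09 (exact two-sided permutation p = 0.0286 each, adjusted p = 0.0343 over 6 such tests). An exact p of 0.0286 is the smallest that 4 against 4 libraries allow. Between naive CM and regular medium this ratio differed by -0.11 and did not pass (exact permutation p = 0.0571). The log2 ratio of Tnfrsf12a to Tnfrsf1a was -0.81, -0.72, -1.01 and -0.71 in IFNγ/LPS CM, against -0.11, 0.06, -0.11 and 0.05 in naive CM and 0.36, 0.12, 0.19 and 0.35 in regular medium. The 3 media did not overlap in it. It was lower in IFNγ/LPS CM than in naive CM by 0.78 and lower in naive CM than in regular medium by 0.28 (exact permutation p = 0.0286 each, adjusted p = 0.0343). Without any 1 of the naive CM libraries the difference between naive CM and regular medium no longer passed (exact permutation p = 0.0571, not adjusted).

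**Figure D2:**
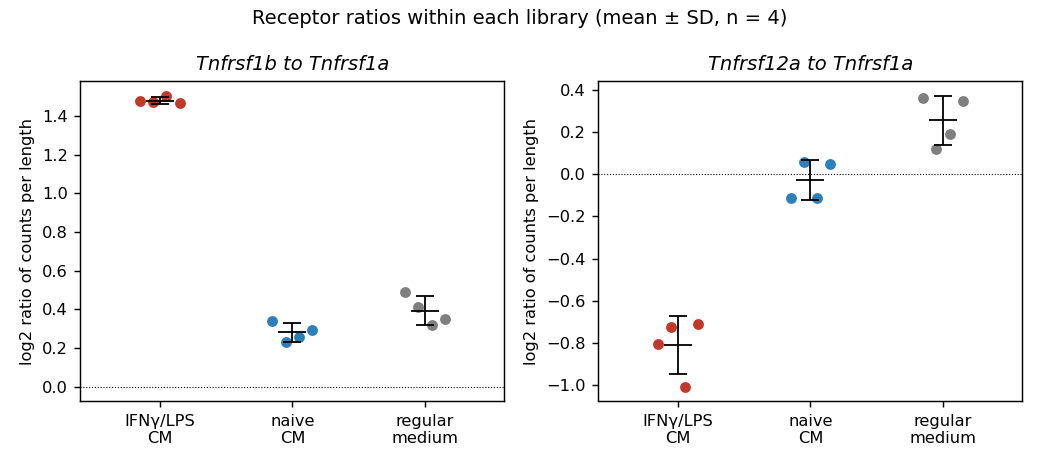
Log2 ratio of counts per length within each library (points, vertical axis) by medium (horizontal axis), with mean and SD (bars, n = 4), for Tnfrsf1b to Tnfrsf1a and for Tnfrsf12a to Tnfrsf1a. The first ratio is at 1.46 to 1.505 in IFNγ/LPS CM and at most 0.49 elsewhere, and the second is at -1.01 to -0.71 in IFNγ/LPS CM.

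Among the ligands, Tnfsf9 encodes 4-1BB ligand, a costimulator of T cells. It had 21.4, 21.04, 21.1 and 22.2 CPM with IFNγ/LPS CM, against 5.34, 4.63, 5.20 and 5.32 CPM in naive CM and 3.73, 3.13, 3.16 and 4.36 CPM in regular medium. The 3 media formed separate ranges, and the rise over naive CM was 4.19-fold (log2 fold change 2.07, SE 0.093, edgeR's adjusted p = 1.48e-13). Tnfsf13b encodes BAFF, a survival factor of B cells, and was rare. It had 17, 19, 23 and 14 counts in IFNγ/LPS CM, against 3, 5, 4 and 1 counts in naive CM and 5, 4, 2 and 4 counts in regular medium. Every library of IFNγ/LPS CM exceeded every other, and the ratio of summed counts to naive CM, scaled for depth, was 7.93 with an exact 95% counting interval of 4.36 to 15.6 (edgeR's adjusted p = 4.48e-06). Tnfsf13b passed the filter on low counts only through IFNγ/LPS CM, so this separation and this call follow partly from the filter. Its level in IFNγ/LPS CM was still only 0.514 ± 0.0999 CPM (SD, n = 4).

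Tnfsf15 encodes TL1A, a ligand first described in endothelium. It had 19.6, 22.1, 22.8 and 21.5 CPM with IFNγ/LPS CM, against 23.7, 21.8, 22.7 and 23.7 CPM in naive CM and 15.9, 17.1, 14.6 and 14.3 CPM in regular medium. The conditioned media overlapped and both lay above regular medium. Between the conditioned media the log2 fold change was -0.10 (SE 0.066, edgeR's adjusted p = 0.194). With library totals it was -0.48 and passed (edgeR's adjusted p = 2.13e-06), beside a median of -0.38 for all genes. Tnfsf18 encodes GITR ligand. It had 8.45, 10.4, 7.07 and 10.2 CPM with IFNγ/LPS CM, against 7.51, 6.76, 3.95 and 7.25 CPM in naive CM and 8.45, 8.59, 12.1 and 10.4 CPM in regular medium. IFNγ/LPS CM overlapped both other media, and naive CM replicate 3 was the lowest of all libraries. It passed as higher in IFNγ/LPS CM than in naive CM (log2 fold change 0.49, SE 0.199, edgeR's adjusted p = 0.0435). The call was lost in 9 of 17 alternatives, among them without replicate 1, 2 or 4 of IFNγ/LPS CM or replicate 2 or 3 of naive CM (edgeR's adjusted p = 0.0527 to 0.112). Without naive CM replicate 3 its log2 fold change was 0.33, and with library totals 0.10 (edgeR's adjusted p = 0.647).

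Tnf and Ltb were too low to judge. Tnf, the founding ligand of the family, had 1, 1, 2 and 2 counts in IFNγ/LPS CM and none in naive CM or regular medium. Ltb, which forms heterotrimers with lymphotoxin alpha, had 1, 1, 5 and 0 counts in IFNγ/LPS CM, none in naive CM and 1 in regular medium. Replicate 3 of IFNγ/LPS CM held 5 of its 7 counts in that group. The Tnf average in IFNγ/LPS CM was 0.0426 CPM, while a count of 0 over the naive CM libraries allows up to 3 counts, or 0.0150 CPM, for counting error only. With no filter on low counts edgeR's adjusted p for IFNγ/LPS CM against naive CM was 0.0287 for Tnf and 0.0197 for Ltb, at these 6 and 7 counts.

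**Figure D3:**
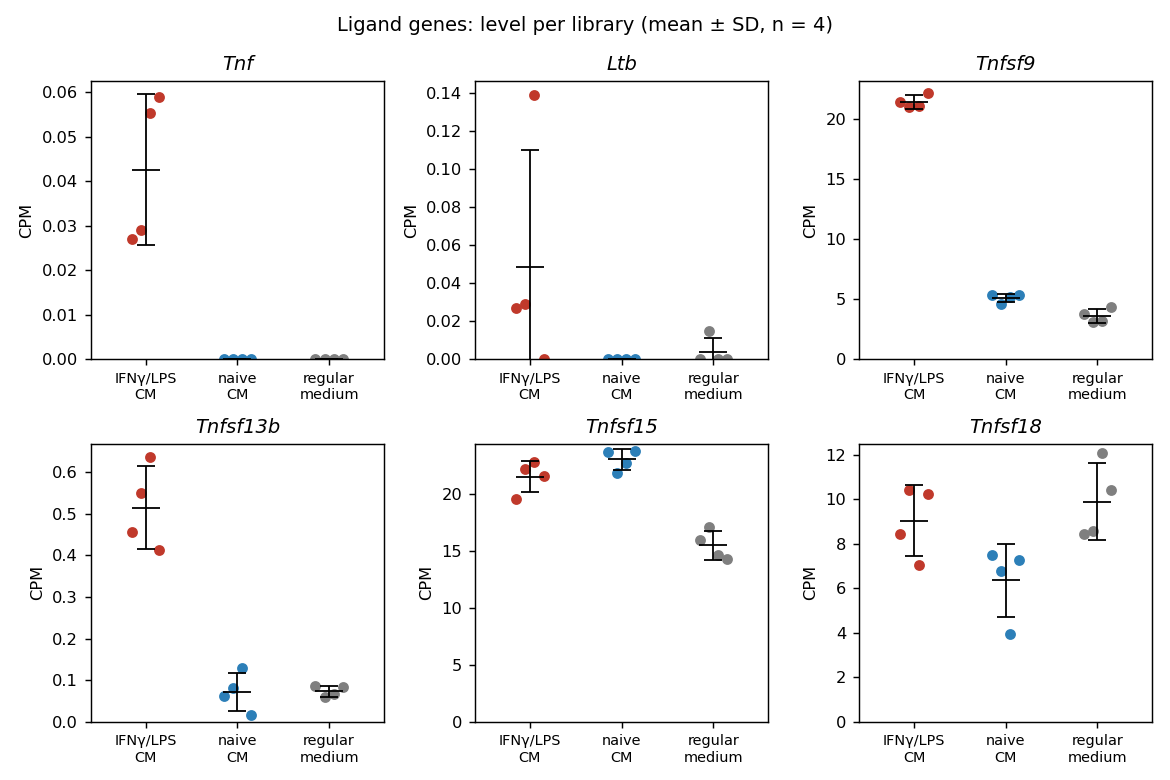
Level of the 6 ligand genes in each library (points, CPM on the vertical axis, from 0, with a separate scale for each gene) by medium, with mean and SD (bars, n = 4, cut off at 0 for Ltb). Tnf and Ltb stay below 0.14 CPM, Tnfsf9 stands apart in IFNγ/LPS CM at 21.04 to 22.2 CPM, and Tnfsf15 and Tnfsf18 do not separate IFNγ/LPS CM from naive CM fully.

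Tnf, Ltb and Tnfsf13b are best known in leukocytes, and markers of leukocytes were measured in the same libraries. Of 12 macrophage markers 5 passed the filter on low counts, Csf1r and Lyz2 only through IFNγ/LPS CM, and these 5 were called higher there than in naive CM, where 36.1% of all genes were. The summed level over the 12 genes was 891 to 1002 CPM in IFNγ/LPS CM, 19.7 to 21.4 CPM in naive CM and 13.1 to 15.4 CPM in regular medium, of which Mpeg1 alone averaged 874 CPM in IFNγ/LPS CM. The pan-leukocyte marker Ptprc had 1 count in all over the 4 libraries of IFNγ/LPS CM, and Fcgr1 and Aif1 had none there. Of 6 lymphocyte markers 5 had no count in IFNγ/LPS CM or in naive CM, and their summed level stayed at or below 0.0277 CPM in IFNγ/LPS CM. What part macrophage RNA has in the counts of Tnf, Ltb and Tnfsf13b was not tested.

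Naive CM was next compared with regular medium. Of the 8 testable genes 4 rose, Tnfsf18 fell and 3 did not pass, none by 2-fold. Among all genes 34.7% were called, 18.3% higher and 16.4% lower, and 2.87% were higher and 0.948% lower by at least 2-fold. The libraries of these groups did not overlap for 3 of the 8 listed genes and for 32.7% of all genes tested. Tnfsf15 rose 1.48-fold, to 23.0 ± 0.893 CPM in naive CM against 15.5 ± 1.27 CPM in regular medium (log2 fold change 0.57, SE 0.066, edgeR's adjusted p = 1.99e-06). Tnfsf9 rose 1.42-fold, to 5.12 ± 0.337 CPM in naive CM against 3.59 ± 0.579 CPM in regular medium (edgeR's adjusted p = 4.94e-04). Tnfrsf1a and Ltbr rose by little, 1.12-fold each, and their libraries overlapped (edgeR's adjusted p = 0.0159 and 0.0255). Both calls were lost without single libraries: for Tnfrsf1a without naive CM replicate 3 or regular medium replicate 1 or 2 (edgeR's adjusted p = 0.0528 to 0.0591), and for Ltbr without naive CM replicate 2 or 3 or regular medium replicate 1 or 2 (edgeR's adjusted p = 0.0537 to 0.0933). Tnfrsf1b (log2 fold change 0.06), Tnfrsf12a (-0.12) and Tnfsf13b (ratio of counts 0.887, counting interval 0.388 to 2.00) did not pass.

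Tnfsf18 fell to 6.37 ± 1.64 CPM in naive CM, against 9.89 ± 1.72 CPM in regular medium (log2 fold change -0.61, SE 0.196, edgeR's adjusted p = 0.0311). The call was lost in 7 of 17 alternatives. Without naive CM replicate 2, regular medium replicate 3 or regular medium replicate 4 edgeR's adjusted p was 0.0590 to 0.0802. Without both shallow libraries, replicate 3 of naive CM and of regular medium, the log2 fold change was -0.35 (edgeR's adjusted p = 0.0601). Tnfrsf18, which encodes its receptor GITR, was lower in naive CM as well, at 0.933 ± 0.155 CPM against 1.75 ± 0.405 CPM in regular medium (log2 fold change -0.90, edgeR's adjusted p = 0.00105). Between IFNγ/LPS CM and naive CM the receptor did not pass, at 0.882 ± 0.0709 CPM in IFNγ/LPS CM (edgeR's adjusted p = 0.801).

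Against regular medium, 7 of the 8 testable genes rose in IFNγ/LPS CM and none fell, where 71.8% of all genes were called, 35.4% higher and 36.4% lower. At least 2-fold rises, with 13.7% of all genes as background, were those of Tnfrsf1b, Tnfsf9, Tnfrsf1a and Tnfsf13b. The rises were 6.36-fold for Tnfrsf1b, 5.95-fold for Tnfsf9, 3.00-fold for Tnfrsf1a, 1.60-fold for Ltbr, 1.43-fold for Tnfrsf12a and 1.39-fold for Tnfsf15, and Tnfsf13b had a ratio of counts of 7.03 (counting interval 4.00 to 13.2). None of these 7 overlapped between the groups, as was so for 65.2% of all genes tested. Here too Tnfsf13b was testable only through its counts in IFNγ/LPS CM, so its call and its separation follow partly from the filter. With library totals 5 of the 8 rose and 1 fell, while all genes split into 3279 higher and 9597 lower. The calls of Tnfrsf12a and Tnfsf15 were then lost (log2 fold change 0.13 and 0.08, edgeR's adjusted p = 0.139 and 0.274), and Tnfsf18, which did not pass (-0.12 on the log2 scale, edgeR's adjusted p = 0.597), was lower (-0.51, edgeR's adjusted p = 0.0318), beside a median of -0.41 for all genes. Tnfsf9 was thus the only listed gene that passed the test in all 3 comparisons with separate ranges in each.

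**Figure D4:**
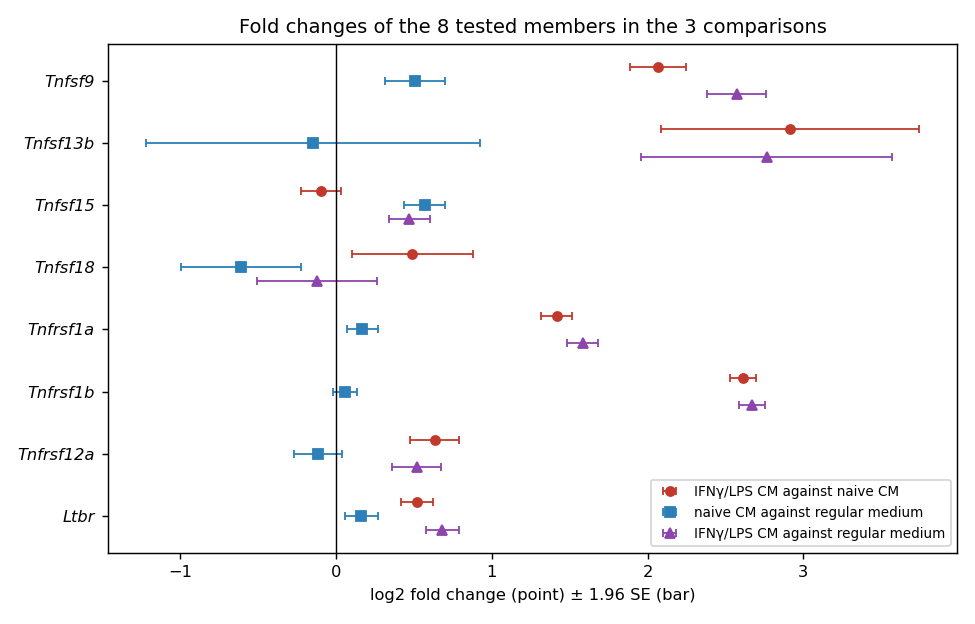
Log2 fold change (points, horizontal axis) with its approximate 95% interval from the SE (bars) for the 8 tested genes in the 3 comparisons. Tnfsf9, Tnfsf13b, Tnfrsf1a and Tnfrsf1b lie beyond 1 in both comparisons of IFNγ/LPS CM, while the comparison of naive CM with regular medium stays between -0.61 and 0.57. Tnfsf13b passed the filter on low counts only through IFNγ/LPS CM.

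Compared per exon length, the 4 listed receptors were more abundant than the 6 listed ligands in each medium. In IFNγ/LPS CM the receptor order was Tnfrsf1b at 569 ± 13.3 TPM, Tnfrsf1a at 204 ± 3.58 TPM, Ltbr at 147 ± 6.80 TPM and Tnfrsf12a at 117 ± 10.2 TPM (SD, n = 4), with every step larger than the spread. In naive CM Ltbr stood at 142 ± 5.97 TPM and Tnfrsf1b at 129 ± 3.87 TPM, and Tnfrsf1a at 106 ± 4.24 TPM did not differ beyond its spread from Tnfrsf12a at 104.1 ± 7.51 TPM. In regular medium Ltbr at 125 ± 9.08 TPM and Tnfrsf1b at 123 ± 3.94 TPM lay within their spread, as did Tnfrsf12a at 112 ± 9.67 TPM and Ltbr. Tnfrsf1a was lowest there, at 93.5 ± 6.95 TPM. Among the listed ligands Tnfsf9 led in IFNγ/LPS CM at 46.3 ± 1.57 TPM, Tnfsf15 led in naive CM at 26.5 ± 1.12 TPM, and Tnfsf18 and Tnfsf15 were within their spread in regular medium at 18.3 ± 3.12 and 17.7 ± 1.86 TPM. Lengths are the union of annotated exons, so a gene with rarely used exons is understated.

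The partners of the listed genes moved in different ways between IFNγ/LPS CM and naive CM. Tnfrsf9, the receptor of the Tnfsf9 product, had 3631, 3351, 3645 and 2968 counts in IFNγ/LPS CM, against 5, 20, 13 and 9 counts in naive CM. The ratio of summed counts, scaled for depth, was 408 with a counting interval of 307 to 556. RNA of ligand and receptor was higher in IFNγ/LPS CM, but Tnfrsf9 passed the filter on low counts only through that group. For Tnfsf15 the receptor Tnfrsf25 fell, at 0.444 ± 0.129 CPM in IFNγ/LPS CM and 0.889 ± 0.229 CPM in naive CM (edgeR's adjusted p = 0.00265). For Tnfrsf12a the ligand Tnfsf12 fell 1.39-fold, to 18.1 ± 1.33 CPM with IFNγ/LPS CM, while naive CM had 25.1 ± 2.03 CPM (edgeR's adjusted p = 6.56e-06). The BAFF receptor genes Tnfrsf13b, Tnfrsf13c and Tnfrsf17 had 2, 2 and 0 counts in IFNγ/LPS CM and none in naive CM, and Lta and Tnfsf14, which encode ligands of the Ltbr product or parts of them, had 1 and 5 counts in IFNγ/LPS CM and 1 and 0 counts in naive CM. These 5 partners were not testable.

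Of 12 further ligands of the superfamily 3 could be tested, and Tnfsf12 and Tnfsf13 fell. The third, Tnfsf10, was called higher but passed the filter only through IFNγ/LPS CM. Tnfsf10, which encodes TRAIL, a ligand of death receptors, had 1194, 997, 1073 and 938 counts in IFNγ/LPS CM against 2, 1, 2 and 2 counts in naive CM, 848 times as many after scaling for depth (95% counting interval 411 to 2109). Tnfsf13, which encodes APRIL, a relative of BAFF, fell 2.71-fold, to 9.38 ± 0.835 CPM with IFNγ/LPS CM, while naive CM had 25.4 ± 1.07 CPM (edgeR's adjusted p = 1.69e-12). Of 24 further receptors 18 were tested, 11 rose, 4 fell and 3 did not pass, where 36.1% of all genes rose and 35.8% fell. Among these, Tnfrsf9 and Cd40 passed the filter only through IFNγ/LPS CM, and Edar, named for this reason after its values were seen, fell and had too few counts for it in every library of IFNγ/LPS CM. Cd40, the receptor of CD40 ligand, averaged 5.02 ± 0.460 CPM with IFNγ/LPS CM, while naive CM held 15 counts in all, a 67.1-fold ratio (40.4 to 121 by counting error). Fas, a death receptor, rose 7.59-fold to 458 ± 6.53 CPM, Tnfrsf14, which encodes the LIGHT receptor HVEM, rose 10.4-fold to 11.7 ± 1.21 CPM, and Tnfrsf8, which encodes CD30, averaged 2.49 ± 0.344 CPM against 0.307 ± 0.149 CPM in naive CM (ratio of counts 8.45, 6.40 to 11.3 by counting error). Tnfrsf23, a decoy receptor in mice, rose 15.3-fold to 245 ± 3.19 CPM, but it has close paralogs in Tnfrsf22 and Tnfrsf26 among which the counting can split reads. In the other direction Tnfrsf21, which encodes death receptor 6, fell 4.23-fold to 11.3 ± 1.74 CPM, and Tnfrsf11b, which encodes the decoy receptor osteoprotegerin, fell 1.59-fold to 33.2 ± 1.09 CPM.

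Of 29 genes for the adaptors, ubiquitin ligases and kinases that these receptors use, all could be tested, and 23 rose, 2 fell and 4 did not pass in IFNγ/LPS CM against naive CM, with a median log2 fold change of 0.83. Over all genes 36.1% rose and 35.8% fell. With library totals 18 of the 29 were higher and 9 lower, while all genes split into 3279 higher and 9371 lower. Traf1, an adaptor bound by Tnfrsf1b, rose 15.04-fold to 10.1 ± 1.01 CPM, and Birc3, a ubiquitin ligase of the receptor complex, rose 9.04-fold to 109 ± 6.21 CPM, while its relative Birc2 rose 2.81-fold. Tnfaip3, which encodes the inhibitor A20, rose 7.27-fold to 396 ± 5.73 CPM, its binding partner Tnip1 rose 4.96-fold, and Rnf31, the linear ubiquitin ligase, rose 3.39-fold. Tab1 and Otulin fell, 1.45-fold and 1.13-fold. Tradd and Fadd, the death domain adaptors, did not pass (log2 fold change 0.01 and 0.03). Of 5 genes of receptor and ligand shedding, Adam17, the protease that releases TNF and its receptors, rose 3.13-fold to 274 ± 6.27 CPM, and Rhbdf2, which brings that protease to the surface, rose 2.72-fold, whereas Rhbdf1 fell 1.60-fold to 39.9 ± 2.80 CPM. With library totals 2 of these 5 were higher and 3 lower. Between naive CM and regular medium 9 of the 29 signalling genes passed, 4 higher and 5 lower, at 31.0% of those tested, near the 34.7% of all genes.

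**Figure D5:**
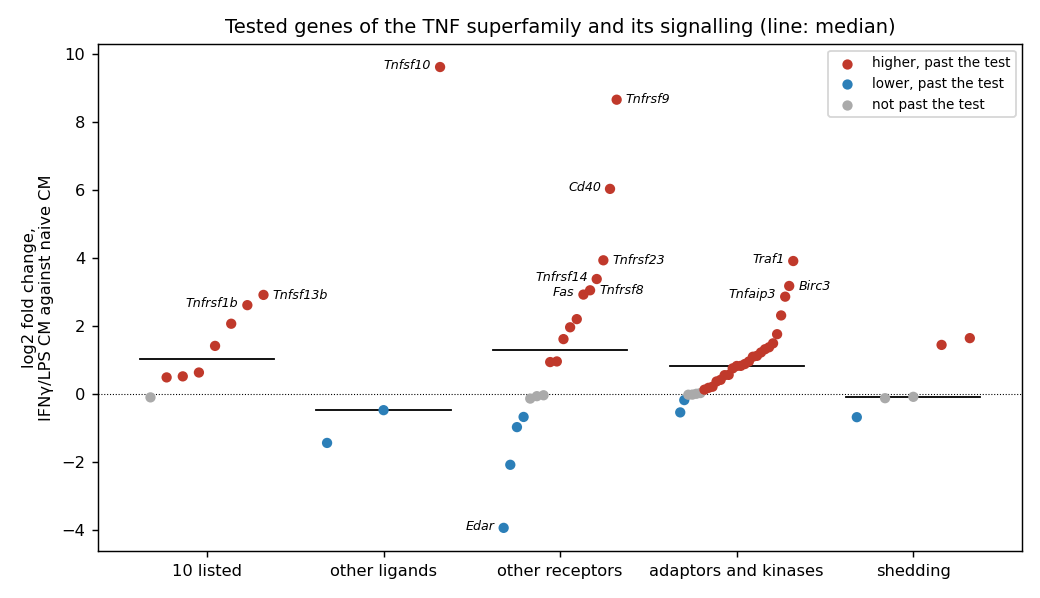
Log2 fold change of IFNγ/LPS CM against naive CM (vertical axis) for each tested gene of 5 lists (horizontal axis), coloured by call, with the list median as a line. Tnfsf10, Tnfrsf9 and Cd40 lie highest, and the medians are 1.02 for the listed genes, -0.47 for other ligands, 1.29 for other receptors, 0.83 for adaptors and kinases and -0.08 for shedding. Tnfsf10, Tnfrsf9, Cd40 and Tnfsf13b passed the filter on low counts only through IFNγ/LPS CM, so their place here follows partly from the filter. Under the stricter filter the median was 0.63 for the listed genes and was higher than shown for other receptors.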

How the data were processed

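RNA of 12 libraries in 3 groups was measured. Per the labels' protocols, stranded polyadenylated RNA libraries were sequenced in paired reads of 150 bp, and the submitters' processing notes name Salmon 1.10.1 and the build mm10. The authors deposited estimated counts (expected counts) per gene as whole numbers, taken here as rounded Salmon estimates. Which annotation was used, and how transcripts were summed, the sources used here do not give. Columns were joined to titles by name, with M0 taken as naive and M1 as stimulated macrophages, a reading of the column names that no label states, and every direction rests on it. Of 55822 identifiers 51344 matched a symbol in GENCODE M21 without the version, including all 10 genes, and 3.53 to 5.86% of the counts lay in unmatched identifiers.

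Genes were kept by filterByExpr and tested in edgeR 4.0.16 (R 4.3.3) with TMM scaling, robust quasi-likelihood fits over the 12 libraries (9 residual degrees of freedom) and Benjamini-Hochberg adjustment over 16140 genes. The fit was also run on simulated data in which few genes changed, equally in both directions, so that run cannot judge the choice of scaling. SE is the log2 fold change over the square root of F. Where a group held 100 counts or fewer, ratios of summed counts carry exact binomial 95% intervals, which cover counting error only. Receptor ratios were tested by exact permutation. Libraries of one group differed by more than sampling noise (chi-square per degree of freedom at least 4.61), and no batch is labelled. TPM used the union of GENCODE exons, and promoters came from RefSeq on GRCm38.p6.

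Genes, lists and naming rule were set with earlier results of these data known. The rule named all 10 genes, their partners, and from each list the called genes with at least 1 CPM that changed most, up to 6, with up to 3 in the other direction. Tradd and Fadd fall outside it and were picked after seeing their values. Alternatives were DESeq2 1.42.0 size factors or Wald test, library totals, no filter, a stricter filter (1 CPM in 4 libraries), limma-voom 3.58.1, fits of the groups compared alone, a replicate block by title number, and dropping single libraries. A 2-fold minimum and leaving out the 2 shallow libraries were added after the data were seen.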

Additional observations from a re-analysis of the deposited data

Results flagged for a closer look

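For Tnfrsf12a in IFNγ/LPS CM, replicate 3 lay far below the others, at 70.9 CPM against 83.3 to 85.3 CPM, a gap of 0.856 of the range of the 4 libraries. It was the 1 sample to stand apart so among 30 groups examined (8 genes and 2 receptor ratios in 3 media), where chance gives about 1 in 20. Without that library the log2 fold change of Tnfrsf12a was 0.69 against naive CM and 0.58 against regular medium (edgeR's adjusted p = 3.73e-07 and 3.29e-06).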

How the results depend on the processing

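Of the fold changes of the 8 tested genes recomputed under alternatives, 376 kept their direction and side of the threshold, 25 lost the call, 2 gained it and 1 changed sign: Tnfsf13b in naive CM against regular medium without naive CM replicate 4 (0.22 on the log2 scale, edgeR's adjusted p = 0.815), where leaving out single libraries gave -0.44 to 0.22. With library totals the listed genes called lower became 1 in IFNγ/LPS CM against naive CM (Tnfsf15) and 1 against regular medium (Tnfsf18), and all genes split into 3279 higher and 9371 lower, and into 3279 higher and 9597 lower. With a 2-fold minimum the listed genes called higher were 4 in IFNγ/LPS CM against each other medium and 0 in naive CM against regular medium, with 0 lower, and all genes higher and lower were 2246 and 2427, 2205 and 2328, and 464 and 153. In naive CM against regular medium, leaving out single libraries gave 2 to 4 listed genes higher and 0 to 1 lower, and none was lower with no filter, with only the groups compared, with the replicate block or without the 2 shallow libraries (0 each).

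Same-numbered libraries were not treated as paired, since their deviations from the group means correlated at -0.0637 to 0.0679 over 12 pairs, none above 0.1. With the replicate number as a block, the calls of Tnfsf18 were lost in IFNγ/LPS CM against naive CM (edgeR's adjusted p = 0.0675) and in naive CM against regular medium (edgeR's adjusted p = 0.0508), and no other call of a listed gene changed. A paired sign-flip test of the mean difference in the receptor ratios cannot go below 0.125 with 4 pairs. All 5 ratio comparisons past the main test reached it (exact sign-flip p = 0.125), at unchanged differences of 1.20, 1.09, -0.78, -0.28 and -1.07. Leaving out single libraries, the ratio of Tnfrsf12a to Tnfrsf1a in naive CM against regular medium differed by -0.33 to -0.25. Its call was lost without any 1 naive CM library (exact permutation p = 0.0571, not adjusted). The cause was not tested where a setting moved a call. Depth limits Tnf and Ltb, at 6 and 7 counts in IFNγ/LPS CM, and leaves a wide interval for Tnfsf13b.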
